A study of Mus musculus with 44 samples.

Results

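The expression of 10 genes of the major histocompatibility complex (MHC) class I antigen presentation pathway was followed across 44 mouse lung libraries in 9 groups. The genes were chosen by name. They encode the class I heavy chains H2-K1 and H2-D1, the light chain B2m, the peptide transporter subunits Tap1 and Tap2, tapasin (Tapbp), the immunoproteasome subunits Psmb8 and Psmb9, the proteasome activator subunit Psme1 and the transcriptional regulator Nlrc5. All 10 were present in both deposited tables, among 24150 genes in the subcutaneous table and 26940 in the intratracheal table, and all 10 passed the filter on low values in each of the 14 comparisons.

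The series asks how a mutant Timp2 gene and daily recombinant human TIMP2 protein (rTIMP2) affect lung tumours. TIMP2 protein is secreted and inhibits matrix metalloproteinases. All mice were C57BL6j, and every sample, tumour-free lungs included, carries the label of LL/2-Luc2, a luciferase-bearing Lewis lung carcinoma line. Age was not given in the sources used here. In the subcutaneous model, wild-type mice bore LL/2-Luc2 cells under the flank skin and their lungs are titled early metastatic. These mice received HBSS, a salt solution, as the tumour control (n = 5), or rTIMP2 starting on day 0 (n = 5) or on day 7 (n = 4). For the intratracheal model, tumour cells were placed in the airway of wild-type (WT) mice or of mice labelled as mutant Timp2 (MT2). The 6 groups were tumour-free lungs, tumour lungs with HBSS and tumour lungs with rTIMP2, each in WT and in MT2 mice, with n = 5 in each. Treated mice received 200 µg per kg per day into the peritoneum. LL/2 cells derive from a C57BL mouse, so class I transcripts of the tumour cells and of the host lung are counted together. In bulk lung, fewer cells of a type and less RNA per cell cannot be told apart. The labels do not say that libraries came from separate animals, so p-values measure only the spread between samples.

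Class I molecules display peptides from inside the cell to CD8 T cells and are present on nearly all nucleated cells. Proteasomes cut proteins into peptides, TAP carries the peptides into the endoplasmic reticulum, and tapasin holds an empty class I molecule next to TAP until a peptide is bound. Interferon gamma raises transcription of this pathway, exchanges the constitutive catalytic proteasome subunits for immunoproteasome subunits, and induces NLRC5. NLRC5 acts on a promoter module that holds X and Y boxes and is shared by the class I heavy chain genes and B2m.

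The promoters of 4 of these genes are shown because the pathway is known for shared promoter elements and because 3 of these genes, H2-K1, B2m and Tap1, were lower in tumour lungs of both genotypes. H2-D1 was called lower in WT alone. Tap2, Psmb8 and Psmb9 were also lower in both genotypes and are not shown, so the choice does not link the motifs to the falls. The RefSeq promoter table (GRCm38.p6) matched 8 of the 10 genes; Tap2 and Nlrc5 were not matched. Each sequence is the 250 bases before the RefSeq start of transcription, written in the direction of transcription. They lie at chr17:34000348-34000597 (minus strand) for H2-K1, chr17:35262844-35263093 (plus) for H2-D1, chr2:122147437-122147686 (plus) for B2m and chr17:34187306-34187555 (plus) for Tap1. Capitals mark every match on either strand to TGACG (the core of the X2 box), ATTGG (the Y box), GGGATTCCC (a kB site), TTTC, any 2 bases and TTTC (an interferon-stimulated response element) and GTTTCACTT (a form of that element found in class I promoters).
H2-K1: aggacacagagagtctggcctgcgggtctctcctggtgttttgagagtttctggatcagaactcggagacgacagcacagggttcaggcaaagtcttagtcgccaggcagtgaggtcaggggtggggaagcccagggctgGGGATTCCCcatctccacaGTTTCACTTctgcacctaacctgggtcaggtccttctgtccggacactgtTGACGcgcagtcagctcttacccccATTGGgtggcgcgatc
H2-D1: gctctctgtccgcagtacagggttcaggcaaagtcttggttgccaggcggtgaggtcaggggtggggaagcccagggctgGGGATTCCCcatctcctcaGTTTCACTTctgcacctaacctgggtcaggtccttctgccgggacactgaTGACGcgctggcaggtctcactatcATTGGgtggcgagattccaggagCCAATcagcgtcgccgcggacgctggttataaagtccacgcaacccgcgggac
B2m: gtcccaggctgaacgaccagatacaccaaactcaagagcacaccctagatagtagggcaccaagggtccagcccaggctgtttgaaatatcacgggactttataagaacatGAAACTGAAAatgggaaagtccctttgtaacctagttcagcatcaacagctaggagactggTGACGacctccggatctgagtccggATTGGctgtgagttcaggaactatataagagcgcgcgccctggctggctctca
Tap1: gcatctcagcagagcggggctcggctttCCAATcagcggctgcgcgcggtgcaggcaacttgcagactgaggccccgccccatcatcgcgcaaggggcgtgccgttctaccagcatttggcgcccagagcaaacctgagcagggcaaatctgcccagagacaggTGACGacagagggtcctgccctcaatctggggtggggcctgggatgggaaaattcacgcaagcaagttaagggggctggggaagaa

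In H2-K1, H2-D1 and B2m the X2 core was followed by a Y box on the same strand, with 20 bases between them in each of the 3 promoters. That order, with 10 to 25 bases between, occurred in 0.53% of the 32851 promoters of the table. H2-D1 also held a Y box on the minus strand. The table lists a second H2-K1 start, a little downstream of the one shown, and the 250 bases before it also hold a Y box on the minus strand. The single motifs were less rare, with TGACG in 17.77% and ATTGG in 33.85% of the promoters. The H2-K1 and H2-D1 sequences also shared GGGATTCCC, present in 0.3% of promoters, and GTTTCACTT, present in 0.34%. The letters of these last 2 motifs were chosen after the sequences were seen. Without gaps, H2-K1 and H2-D1 were identical at 87.4% of 190 aligned bases, with a longest shared run of 47 bases. The B2m promoter held the interferon-stimulated response element on the minus strand, a motif in 2.98% of promoters. Tap1 held 1 match to TGACG and 1 to ATTGG in opposite orientations and far apart. Psmb9 starts on the other strand next to Tap1, so its promoter holds the same matches. A search for TTCNNNGAA, the letters of a gamma-activated site, matched the Psmb8 promoter among the members and 7.02% of all promoters. Tapbp matched ATTGG and none of the other motifs, and Psmb8 matched none of those marked in capitals. No match to any of these motifs was found for Psme1. These motifs do not overlap one another in the sequences shown, and a match describes the letters and not binding.

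On chromosome 17 lie 7 of the 10 genes (GRCm38, GENCODE vM21), within 1.35 Mb between Tapbp (33915899 to 33929292) and H2-D1 (35262730 to 35267499). H2-K1 spans 33996017 to 34000347, and Psmb9 (34181987 to 34187764), Tap1 (34187553 to 34197225), Psmb8 (34197721 to 34201454) and Tap2 (34203527 to 34216321) stand side by side. Psmb9 and Tap1 overlap over 212 bp on opposite strands, and the strand of counting is not given, so reads there cannot be told apart. B2m is on chromosome 2 (122147686 to 122153083), Psme1 on chromosome 14 (55578123 to 55581529) and Nlrc5 on chromosome 8 (94434356 to 94527272). Class I genes are near copies of each other, so the split of reads between H2-K1, H2-D1 and the nonclassical genes is uncertain.

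The values are normalized counts, and the estimated depth was 14.86 to 19.41 M reads in the subcutaneous and 10.68 to 17.14 M reads in the intratracheal libraries. The luciferase reporter was 0 in all tumour-free lungs and 39.3 to 69.2 in WT and 47.6 to 70.9 in MT2 HBSS tumour lungs. In the subcutaneous lungs the reporter was 14.3 to 44.8. The tumour transcript Hmga2, however, was 1.01 to 18.0 in the subcutaneous lungs and 9.52 to 27.8 in tumour-free lungs. In the intratracheal HBSS lungs Hmga2 was 2212 to 5070. Lung identity was checked on 12 alveolar and airway epithelial genes, whose summed level was 602237 to 654253 in MT2 tumour-free and 12542 to 269853 in MT2 HBSS tumour lungs. Several libraries stood apart. In WT rTIMP2 replicates 2, 3 and 5 the reporter was 0 and the tumour transcript Hmga2 was between 13.6 and 32.1, near the 12.6 to 27.8 of WT tumour-free lungs. In MT2 rTIMP2 replicate 2 the reporter was 0.983 and Hmga2 was 63.9. These 4 libraries also had Xist, the transcript of the inactive X chromosome, between 42.2 and 119, and the Y-linked gene Ddx3y between 1024 and 1321. All tumour-free lungs had Xist of 4118 or more and Ddx3y of 0.958 to 5.78 in WT and 0.910 to 2.72 in MT2. All intratracheal HBSS tumour lungs had both, with Xist of 1153 to 8305 and Ddx3y of 123 to 672. The subcutaneous lungs, HBSS included, had Xist of 3.75 to 40.8 and Ddx3y of 1139 to 1714. Sex-linked transcripts thus moved with the groups, and their part in the results was not tested. Between intratracheal tumour and tumour-free lungs Ddx3y did not overlap, so sex-linked differences and tumour cannot be told apart in those comparisons. Timp2 itself, as a check of the labels, was 10619 ± 519 (SD, n = 5) in WT and 6105 ± 144 in MT2 tumour-free lungs, which is -0.80 ± 0.05 on the log2 scale (MT2 minus WT, SE; limma adjusted p = 1.7e-07). In HBSS tumour lungs Timp2 was 6900.1 ± 838 in WT and 8809 ± 2371 in MT2, so the mean was higher in the libraries labelled MT2, without passing the test (adjusted p = 0.77). With rTIMP2 it was 8731 ± 1834 in WT and 7019 ± 1658 in MT2 (adjusted p = 0.36). The genotypes overlapped in Timp2 in both tumour settings, so there it does not check the genotype labels, and MT2 means the libraries so labelled.

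Per kilobase of exon, the order of the mean levels in WT tumour-free lungs was B2m, H2-D1, H2-K1, Tapbp, Psme1, Tap2, Psmb8, Tap1, Psmb9 and Nlrc5. The level per kilobase was 16329.7 ± 943 (SD, n = 5) for B2m, 8329 ± 444 for H2-D1 and 5955 ± 451 for H2-K1. It was 203 ± 25 for Tap1 and 175 ± 20.1 for Psmb9, the only neighbours in this order that overlapped between libraries. Nlrc5, at 38.0 ± 3.36 per kilobase, was the lowest. In WT tumour lungs with HBSS the order of the means was the same, but 8 of the 9 neighbouring pairs then overlapped between libraries; the exception was Psme1 above Tap2.

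The first comparison asked how tumour lungs with HBSS differed from tumour-free lungs within each genotype. In WT mice 7 of the 10 genes were lower in tumour lungs and none was higher by limma, where 37.7% of all 16967 genes tested were lower and 32.8% higher. In MT2 mice 8 of the 10 were lower and none was higher, where 35.9% of all 16999 genes tested were lower and 31.5% higher. At an unadjusted p under 0.05, 8 of 10 genes passed in WT, as did 12387 of all 16967 genes. In MT2 9 of 10 passed, as did 11922 of all 16999 genes. The median log2 fold change of the 10 genes was -0.61 in WT and -0.96 in MT2, against -0.07 and -0.05 for all genes. Immunoproteasome subunits, Tap1 and H2-K1 had the largest falls, while Psme1 had positive values in both genotypes that did not pass the test.

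H2-K1, a classical class I heavy chain, had values of 17404, 16607, 16727, 19802 and 16939 in the 5 WT tumour-free lungs and 15949, 7087, 5610.1, 7494 and 3396 in the 5 WT tumour lungs with HBSS. Every tumour lung was below every tumour-free lung, with replicate 1 much nearer to the tumour-free range than the other 4. The mean fell to 45.2% of the tumour-free mean, a log2 change of -1.33 ± 0.32 (SE; limma adjusted p = 0.0035). In MT2 mice H2-K1 was 12416, 15254, 17450.1, 19125 and 12777 in tumour-free lungs and 2919.9, 2746, 7941, 5713 and 7285 in tumour lungs, again without overlap. The log2 fold change there was -1.65 ± 0.31 (adjusted p = 0.00057).

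H2-D1, the other classical heavy chain, was 20812, 21131, 21268, 23486 and 20702 in WT tumour-free and 24370.1, 14805, 13328, 15206 and 12256 in WT tumour lungs. Replicate 1 of the tumour lungs lay above all 5 tumour-free lungs, and the other 4 lay below them. The log2 fold change was -0.47 ± 0.17 (limma adjusted p = 0.03), and this call was lost in 10 of 16 alternative fits, with adjusted p up to 0.079. It was lost under upper quartile scaling (0.065) and under scaling to the library total (0.079). Libraries whose removal ended it were WT HBSS replicates 2, 3, 4 and 5 (0.055 to 0.073) and WT tumour-free replicates 2, 3 and 4 (0.052 to 0.066). In MT2 mice H2-D1 was 16248, 18810.2, 21431, 22905 and 16352 in tumour-free and 10191, 9893, 20684, 13342 and 16551 in tumour lungs. The groups overlapped through replicates 3 and 5 of the tumour lungs, and the log2 difference of -0.48 ± 0.22 did not pass (adjusted p = 0.068). It passed without MT2 HBSS replicate 3 (0.014) or 5 (0.036) and with all 6 intratracheal groups in 1 fit (0.031).

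B2m encodes beta-2 microglobulin, the light chain that every class I molecule needs to fold. It was 13156, 13661, 13909.5, 15334 and 14158 in WT tumour-free and 15345, 9164, 7590.4, 9075 and 9994 in WT tumour lungs, where replicate 1 was just above all tumour-free lungs and the other 4 were below them. Its log2 fold change was -0.50 ± 0.17 (limma adjusted p = 0.021), and it was lost without WT HBSS replicate 3 (0.052), under scaling to the library total (0.056) and with all groups in 1 fit (0.065). In MT2 mice B2m was 11356, 13173, 15052, 16232 and 10656 in tumour-free and 5678, 4291, 13895, 7816 and 9369 in tumour lungs. Replicate 3 of the MT2 tumour lungs overlapped the tumour-free range and the other 4 were below it. The log2 fold change was -0.79 ± 0.28 (adjusted p = 0.026), and it was lost without MT2 HBSS replicate 1 (0.065) or 2 (0.059) and without MT2 tumour-free replicate 3 (0.057) or 4 (0.062).

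**Figure D1:**
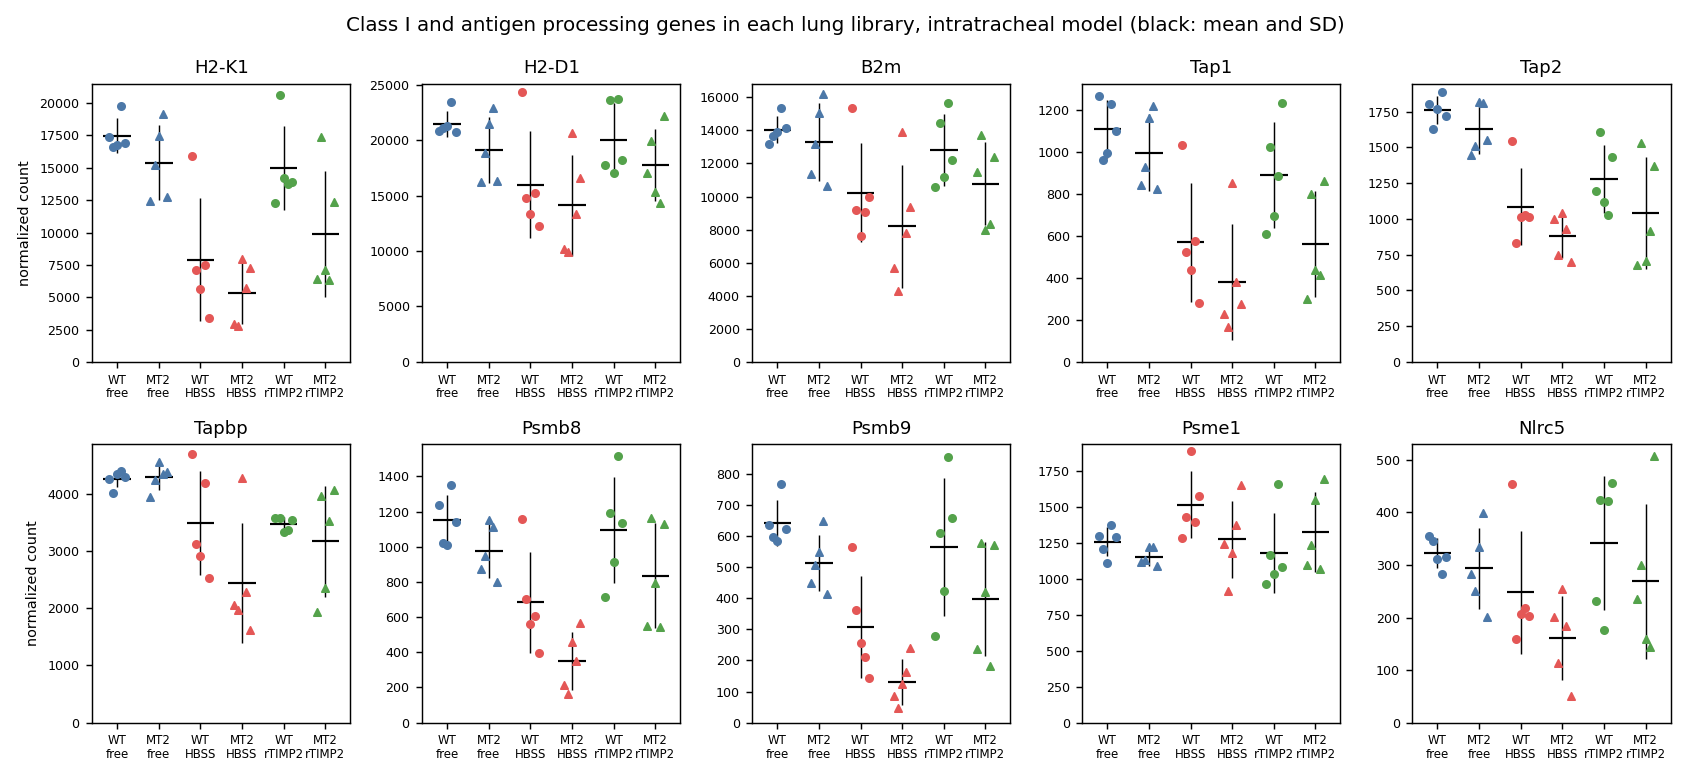
Normalized counts (vertical axes from 0) of the 10 genes in each intratracheal library, with 1 point per library, circles for WT and triangles for MT2, and black lines for the mean and SD of each group (n = 5). In the HBSS tumour groups (red), WT replicate 1 and MT2 replicate 3 are the highest points for Tap1 and Tapbp; for H2-K1 and Tap2 the means of the rTIMP2 groups (green) lie between those of the tumour-free (blue) and HBSS groups.

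Tap1 and Tap2 form the transporter that brings peptides to class I molecules. Tap1 was 1267, 959.5, 993, 1229 and 1099.5 in WT tumour-free and 1033, 525, 435, 577 and 278 in WT tumour lungs, with replicate 1 alone inside the tumour-free range. Its log2 fold change was -1.08 ± 0.28 (limma adjusted p = 0.005). In MT2 mice Tap1 was 844, 930.2, 1163, 1219 and 825 in tumour-free and 229, 167, 853, 380.2 and 277 in tumour lungs. Replicate 3 overlapped and the other 4 did not, and the log2 fold change was -1.61 ± 0.36 (adjusted p = 0.002).

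Tap2 was 1807, 1627, 1770.5, 1884 and 1722 in WT tumour-free and 1542, 831, 1014, 1030.0 and 1016 in WT tumour lungs. It was 1449.6, 1508, 1819, 1813 and 1553 in MT2 tumour-free and 998, 748, 1044, 929.5 and 696 in MT2 tumour lungs. Neither pair of groups overlapped. The log2 fold changes were -0.73 ± 0.14 in WT (limma adjusted p = 0.00087) and -0.89 ± 0.14 in MT2 (adjusted p = 0.0002).

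Tapbp, the bridge between TAP and class I, was 4261, 4019, 4341, 4406 and 4294 in WT tumour-free and 4698, 3130.4, 2912, 4186 and 2536 in WT tumour lungs. Replicate 1 lay above all tumour-free lungs, replicate 4 lay inside their range and the other 3 lay below it. The log2 difference of -0.33 ± 0.16 did not pass (limma adjusted p = 0.087); without WT HBSS replicate 1 the adjusted p was 0.0084 and without replicate 4 it was 0.049. In MT2 mice Tapbp was 3951, 4233, 4551, 4344 and 4377 in tumour-free and 2064, 1968, 4268, 2282 and 1613 in tumour lungs, and only replicate 3 of the latter overlapped. Tapbp fell there, with a log2 fold change of -0.90 ± 0.22 (adjusted p = 0.0036).

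Among 8 other genes of the loading complex and of peptide trimming, 5 were higher and 2 were lower in WT tumour lungs, and 2 were higher and 2 lower in MT2 tumour lungs. Their median log2 fold changes were 0.46 and 0.10. The tapasin-related editor Tapbpl fell in both genotypes, with log2 fold changes of -1.39 ± 0.23 (limma adjusted p = 0.00026) and -1.97 ± 0.17 (adjusted p = 2e-06). Erap1, the aminopeptidase that trims peptides in the endoplasmic reticulum, fell as well (-0.58 ± 0.10 in WT and -1.20 ± 0.14 in MT2). The cytosolic peptidases Lap3 and Tpp2 were higher in both, with log2 fold changes between 0.55 and 0.74. Calreticulin (Calr), a chaperone of class I loading, was 8792 ± 1060.2 against 6215 ± 365 in WT tumour and tumour-free lungs, with a log2 fold change of 0.49 ± 0.11.

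Psmb8 is the immunoproteasome subunit that takes the place of Psmb5. It was 1235, 1023, 1012, 1350.3 and 1138 in WT tumour-free and 1155, 701, 560.3, 605 and 398 in WT tumour lungs, with overlap through replicate 1. In MT2 mice it was 870.4, 947, 1152, 1115 and 798 in tumour-free and 213, 163, 460.0, 351 and 564 in tumour lungs, without overlap. The log2 fold changes were -0.83 ± 0.23 (limma adjusted p = 0.0078) and -1.61 ± 0.31 (adjusted p = 0.00067).

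Psmb9, which replaces Psmb6, was 636, 598, 585, 769 and 624 in WT tumour-free and 564, 362, 257, 211 and 143 in WT tumour lungs. In MT2 mice it was 449, 507, 547, 647 and 415 in tumour-free and 86.8, 47.3, 123, 164 and 239.6 in tumour lungs. Neither pair overlapped, and the MT2 tumour mean was 25.8% of the tumour-free mean. The log2 fold changes were -1.21 ± 0.30 (limma adjusted p = 0.0043) and -2.13 ± 0.36 (adjusted p = 0.00029), the latter the largest change of the 10 genes in any comparison run.

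Psme1 encodes the alpha subunit of the activator PA28, which opens the proteasome's entrance. It was 1298, 1209, 1111, 1371 and 1291 in WT tumour-free and 1282, 1429.9, 1883, 1396 and 1575 in WT tumour lungs, with 4 of 5 tumour lungs above all tumour-free lungs. The log2 difference of 0.26 ± 0.11 did not pass (limma adjusted p = 0.057); it passed after upper quartile scaling (0.022), scaling to the library total (0.013) or without WT HBSS replicate 1 (0.019). In MT2 tumour lungs Psme1 was 1242, 914, 1181, 1375 and 1649 against 1113, 1126, 1222, 1222 and 1085 in tumour-free lungs. Those groups overlapped, and the log2 difference was 0.12 ± 0.15 (adjusted p = 0.51).

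All 15 constitutive proteasome genes tested were higher in WT tumour lungs (median log2 fold change 0.80), and 13 of 15 were higher in MT2 tumour lungs (median 0.85). Psmb5 was 1479.9 ± 352 against 833 ± 42.5 in WT tumour and tumour-free lungs (0.80 ± 0.15, limma adjusted p = 0.00072), and Psmb6 was 2269 ± 545 against 1117 ± 99.0 (0.99 ± 0.16, adjusted p = 0.00028). The PA28 beta subunit Psme2 was higher in WT tumour lungs (0.53 ± 0.15, adjusted p = 0.0077), as was Pomp, the proteasome maturation factor (0.53 ± 0.10, adjusted p = 0.00083). The remaining immunoproteasome subunit, Psmb10, did not pass in WT (-0.21 ± 0.13, adjusted p = 0.18) or in MT2 mice (-0.54 ± 0.24, adjusted p = 0.059).

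Each immunoproteasome subunit was also set against the constitutive subunit it replaces within the same library, a ratio that does not depend on how the library was scaled. Psmb9/Psmb6 was 0.564, 0.546, 0.575, 0.601 and 0.584 in WT tumour-free and 0.376, 0.130, 0.0939, 0.108 and 0.0598 in WT tumour lungs. It was 0.506, 0.476, 0.545, 0.623 and 0.374 in MT2 tumour-free and 0.0361, 0.0330, 0.0769, 0.0821 and 0.0621 in MT2 tumour lungs. The tumour lungs were lower without overlap in both genotypes. The log2 ratio differed by -2.21 in WT and -3.20 in MT2, and each had an exact two-sided permutation p of 0.0079, the smallest that 5 against 5 libraries allow (adjusted p = 0.041 over 36 tests). Psmb8/Psmb5 differed by -1.63 and -2.44 and Psmb10/Psmb7 by -0.92 and -1.32, with the same exact p, adjusted p and absence of overlap. In all, 7 of the 36 ratio tests passed; 12 passed without MT2 rTIMP2 replicate 2. When any 1 of the intratracheal HBSS or tumour-free libraries was left out, no test passed. Comparisons that used the shortened group, with 5 against 4 libraries, allow no exact p below 0.016. The adjusted p also depends on how many of the 36 tests reach 0.0079, so tests that kept 5 against 5 libraries did not pass either.

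**Figure D2:**
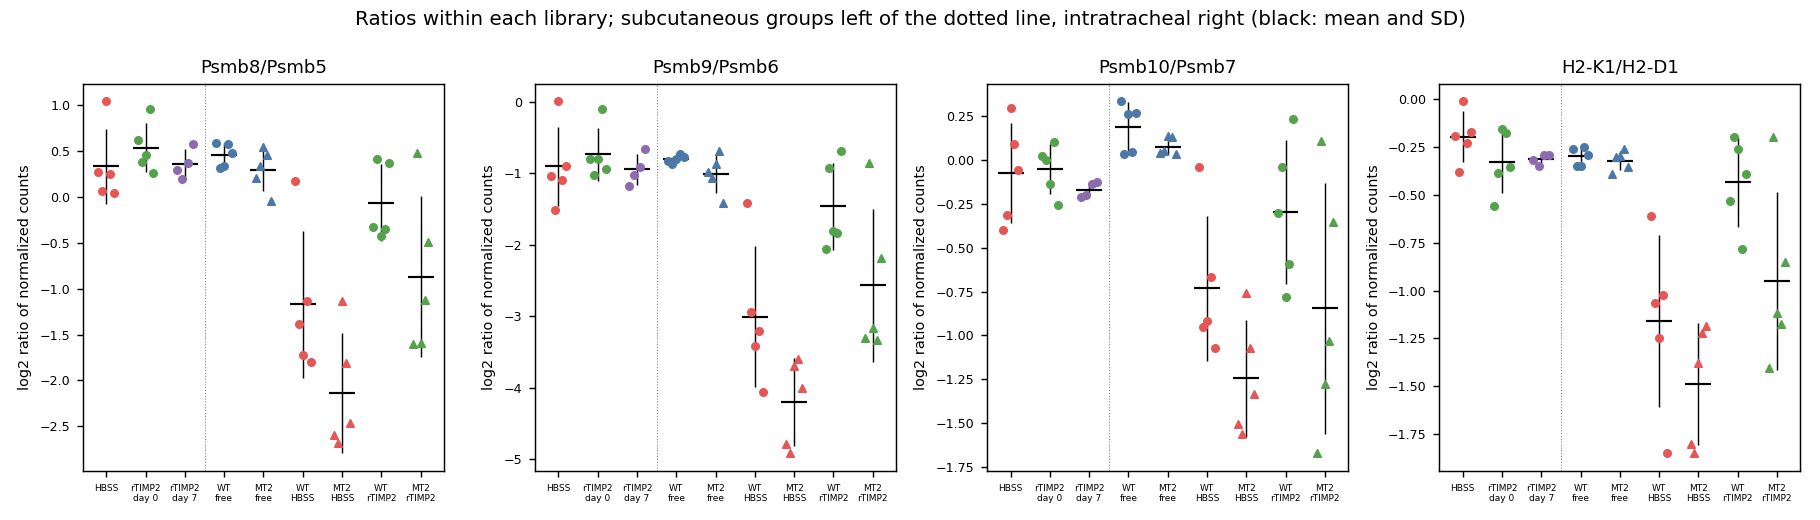
Log2 ratios of normalized counts (vertical axes) within each library for 3 immunoproteasome subunits against their constitutive counterparts and for H2-K1 against H2-D1. Points are libraries (circles WT, triangles MT2) and black lines are group means and SD; in all 4 panels the WT and MT2 HBSS tumour groups (red, right of the dotted line) have lower means than the tumour-free groups (blue).

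The ratio of H2-K1 to H2-D1 was examined after the values had been seen and is given as a description. It was 0.836, 0.786, 0.786, 0.843 and 0.818 in WT tumour-free and 0.654, 0.479, 0.421, 0.493 and 0.277 in WT tumour lungs. It was 0.764, 0.811, 0.814, 0.835 and 0.781 in MT2 tumour-free and 0.287, 0.278, 0.384, 0.428 and 0.440 in MT2 tumour lungs. The tumour lungs lay below the tumour-free lungs in both genotypes. In the subcutaneous lungs the ratio ranged from 0.68 to 0.994, and in WT rTIMP2 lungs from 0.581 to 0.872. In MT2 rTIMP2 lungs it was 0.378, 0.874, 0.461, 0.442 and 0.554, with replicate 2 above the WT rTIMP2 range and the other 4 below it. The split of reads between similar class I genes is uncertain here too.

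Nlrc5 was 355, 345, 312, 284 and 316 in WT tumour-free and 454, 159, 207, 219 and 204 in WT tumour lungs. Replicate 1 was above all tumour-free lungs and the other 4 were below them. The log2 difference of -0.47 ± 0.24 did not pass (limma adjusted p = 0.094), and without WT HBSS replicate 1 the adjusted p was 0.00026. In MT2 mice Nlrc5 was 283, 250.3, 335, 399 and 201 in tumour-free and 201, 114, 255, 185 and 50.1 in tumour lungs. The groups overlapped. Its log2 fold change of -1.02 ± 0.39 passed (adjusted p = 0.036), but not in 6 of 16 alternatives: scaling to the library total (0.069), without MT2 HBSS replicate 2 (0.073), or without MT2 tumour-free replicate 1, 2, 3 or 4 (0.051 to 0.084).

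Of 18 regulators of class I transcription, 6 were lower and 3 higher in tumour lungs of each genotype, with median log2 fold changes of -0.20 in WT and -0.13 in MT2. Irf1, a transcription factor induced by interferon gamma, fell in both genotypes, with log2 fold changes of -0.47 ± 0.15 (limma adjusted p = 0.014) and -0.96 ± 0.15 (adjusted p = 0.00013). Irf8, a factor of myeloid and B cells, fell too, with log2 fold changes of -0.89 ± 0.19 and -1.46 ± 0.11. Ezh2 and Suz12, subunits of the polycomb complex PRC2, were higher in both, with log2 fold changes of 1.52 ± 0.14 and 0.59 ± 0.11 in WT.

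Of the 22 genes of the interferon gamma pathway, 20 were tested in WT, where 12 were lower and 3 higher (median -0.87). In MT2 mice 19 were tested, and 14 were lower and 1 was higher (median -1.60). The guanylate-binding protein Gbp4 was 207 ± 235 against 762 ± 147 in WT tumour and tumour-free lungs (-2.39 ± 0.50, limma adjusted p = 0.0014). The chemokines Cxcl9 and Cxcl10 were higher in WT tumour lungs (2.73 ± 0.81 and 2.72 ± 0.39), as was Socs1, an inhibitor of cytokine signalling (1.36 ± 0.17). Ifng itself was near the floor of detection, with 9.63, 5.82, 0, 10.7 and 8.14 in WT tumour-free lungs, 10.8, 0, 0, 2.10 and 0 in WT tumour lungs and a listed value of 0 in all 5 MT2 tumour lungs. Depth limits any reading of Ifng, since a value near 1 stands for about 1 read.

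Of 11 nonclassical class I genes, 9 were lower in WT and 8 in MT2 tumour lungs, with none higher (medians -1.26 and -1.33). H2-Q6 was 621 ± 541 against 2880.2 ± 241 in WT tumour and tumour-free lungs, with a log2 fold change of -2.61 ± 0.47 (limma adjusted p = 0.00055). H2-T24 fell as well (-2.56 ± 0.39 in WT and -3.83 ± 0.41 in MT2). The MHC class II genes, which serve presentation to CD4 T cells, were 9 of 10 lower and 1 higher in each genotype, with medians of -1.54 and -3.21. Their regulator Ciita was 182 ± 171 against 568 ± 38.0 in WT tumour and tumour-free lungs (-2.12 ± 0.52) and 23.5 ± 10.6 against 551 ± 108 in MT2 (-4.58 ± 0.29). The class II member that was higher was the protease Ctss.

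Markers of several cell types moved with these genes, and their part in the results was not tested. T and NK cell markers were lower for 15 of 16 genes in WT and 16 of 16 in MT2 tumour lungs, with summed levels of 1536 to 2178 in WT tumour-free, 155 to 1293 in WT tumour and 75.3 to 274 in MT2 tumour lungs. Cross-presenting dendritic cell markers were lower for 7 of 8 in each genotype, with sums of 6085 to 7365 in WT tumour-free and 607 to 3775 in WT tumour lungs. B cell markers were lower for 8 of 8 in each, with sums of 1784 to 2771 and 95.8 to 1338 in those groups. Endothelial markers were lower for 10 of 10 in each, with sums of 75520.1 to 84096 and 5355 to 27319.9. Alveolar and airway epithelial markers were lower for 12 of 12 in each, with sums of 623657 to 694540.0 and 33247 to 297389. Heart muscle markers were lower for 7 of 8 in each, with sums of 7873 to 10734 and 158 to 7597. Macrophage and monocyte markers split, with 5 higher and 3 lower of 12 in WT and 5 higher and 4 lower in MT2, and sums of 75542 to 92142 in WT tumour-free and 36114 to 71530.4 in WT tumour lungs. Fibroblast markers split too, with 3 higher and 5 lower of 8 in each genotype, and sums of 25865 to 33818 and 37330.4 to 98268 in those groups. Mesothelial markers were lower for 3 of 5 in each, and neutrophil markers gave 1 higher and 1 lower of 6 in WT and 0 of 6 in MT2. The tumour and proliferation markers were 8 of 8 higher in each genotype. Of these markers the reporter alone was listed at 0 in every library of a group, in the tumour-free groups. In WT HBSS replicate 1, Cd8a was 112 and Ciita 472, the highest of that group, and Hmga2 was 2212, the lowest. The reporter was not the lowest there, at 55.6 against 49.2, 42.4, 69.2 and 39.3 in replicates 2 to 5.

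**Figure D3:**
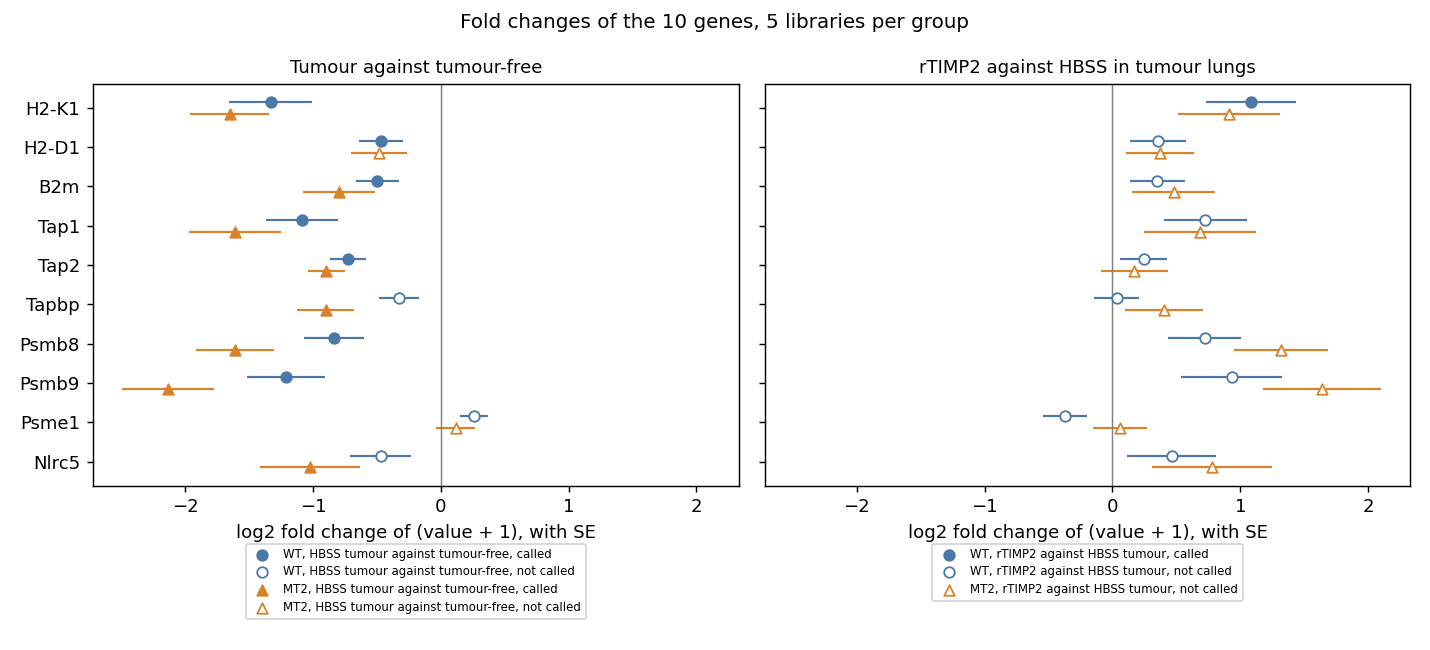
Log2 fold changes with SE (horizontal axes) of the 10 genes for HBSS tumour against tumour-free lungs (left) and rTIMP2 against HBSS in tumour lungs (right), circles for WT and triangles for MT2. Filled symbols passed an adjusted p under 0.05: 7 in WT and 8 in MT2 on the left, and H2-K1 in WT on the right.

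The second question was whether the Timp2 genotype changed these levels. In tumour-free lungs 0 of 10 genes passed between MT2 and WT by limma, where 0.0238% of all genes passed. An unadjusted p under 0.05 was found for 2 of 10 and for 1633 of all 16774 genes. Of the differences, 9 of 10 were negative, with a median of -0.17. Since the 10 genes vary together, a shared sign is not 10 separate results. Psmb9 had the largest, -0.33 ± 0.11 (adjusted p = 0.4, 95% interval -0.57 to -0.10), and Tapbp had the smallest, 0.01 ± 0.05 (-0.10 to 0.11). In HBSS tumour lungs 0 of 10 genes passed, as for 0.0% of all genes (1208 of them at an unadjusted p under 0.05), and 2 of 10 had an unadjusted p under 0.05. All 10 differences were negative there, with a median of -0.54 against -0.03 for all genes. Psmb8 differed by -1.02 ± 0.36 (adjusted p = 0.53, interval -1.81 to -0.23) and Psmb9 by -1.25 ± 0.45 (adjusted p = 0.53, interval -2.24 to -0.27). The 5 Psmb9 values of MT2 tumour lungs overlapped those of WT tumour lungs through the lowest 2 of the WT group.

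The differences between HBSS tumour and tumour-free lungs were compared directly between genotypes by the interaction term. It passed for 0 of 10 genes, where 0.0223% of all genes passed. An unadjusted p under 0.05 was found for 0 of 10 and for 1776 of all 17927 genes. The difference of the log2 fold changes (MT2 minus WT) was -0.92 ± 0.50 for Psmb9 (limma adjusted p = 0.56, interval -1.96 to 0.12), -0.77 ± 0.41 for Psmb8 (-1.62 to 0.07) and -0.57 ± 0.28 for Tapbp (-1.16 to 0.01). These intervals include 0 and also include differences of 1 or more in size. A gene called in a single genotype, such as H2-D1, Tapbp or Nlrc5, was therefore not shown to differ between genotypes.

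The third comparison set rTIMP2 against HBSS in tumour lungs of each genotype. In WT mice 1 of 10 genes, H2-K1, was higher with rTIMP2, where 16.0% of all 16908 genes tested were higher and 11.3% lower. An unadjusted p under 0.05 was found for 4 of 10 and for 8032 of all 16908 genes. H2-K1 was 12270.0, 20613, 14249, 13782 and 13882 in the WT rTIMP2 lungs, all above 4 of the 5 HBSS lungs and overlapping with HBSS replicate 1. Its log2 fold change was 1.08 ± 0.35 (limma adjusted p = 0.046). The call was lost in 12 of 16 alternatives, with adjusted p of 0.054 to 0.11 in those 12 and 0.011 to 0.11 over all 16. Leaving out any 1 of 8 libraries lost it, and these were WT HBSS replicates 2, 3, 4 and 5 and WT rTIMP2 replicates 1, 2, 3 and 5; the calls over all genes also fell to 0 there. Without WT HBSS replicate 1, 6 of the 10 genes passed, where 42.5% of all genes did. Without WT rTIMP2 replicate 4, 2 of 10 passed, where 55.2% of all genes did.

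The other genes did not pass in WT mice. Psmb8 was 712, 1194, 914, 1514 and 1133 with rTIMP2 (log2 difference 0.72 ± 0.28, limma adjusted p = 0.073), and Psmb9 was 278, 609.6, 422, 854 and 659 (0.93 ± 0.39, adjusted p = 0.088). Replicate 1 was the lowest of the 5 treated libraries for both and replicate 4 the highest. Tap1 was 607, 1024, 695, 885 and 1232 (0.73 ± 0.32, adjusted p = 0.1). H2-D1 and B2m had log2 differences of 0.36 ± 0.22 and 0.35 ± 0.21, and Tapbp of 0.03 ± 0.18. Psme1 had a negative difference, -0.37 ± 0.17 (adjusted p = 0.11; 0.01 without WT rTIMP2 replicate 4). Lists with calls in the same comparison were MHC class II (8 of 10 higher), nonclassical class I (6 of 11), T and NK cell markers (7 of 16, with sums of 859 to 2135 with rTIMP2), B cell markers (7 of 8), endothelial markers (9 of 10) and epithelial markers (12 of 12). Tumour and proliferation markers were lower for 8 of 8. The reporter at 0 and the low Xist of 3 of these 5 libraries go with the same comparison, and their part was not tested.

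In MT2 mice rTIMP2 against HBSS gave 0 of 10 genes, as for 0.0% of all genes by limma (1559 at an unadjusted p under 0.05), and 3 of 10 had an unadjusted p under 0.05. All 10 differences were positive, with a median of 0.58 against 0.03 for all genes. Psmb9 was 237, 578, 419, 183 and 573 with rTIMP2, and replicates 2, 3 and 5 were above all 5 HBSS lungs. Its log2 difference was 1.64 ± 0.46 (adjusted p = 0.42, interval 0.62 to 2.65). Psmb8 was 549, 1161, 793, 546 and 1128, with a difference of 1.32 ± 0.37 (adjusted p = 0.41, interval 0.51 to 2.13). With all 6 intratracheal groups in 1 fit these passed, with limma adjusted p of 0.017 for Psmb9 and 0.012 for Psmb8. That fit takes its spread in part from the tumour-free lungs, which vary less than tumour lungs on the log2 scale. No gene of the related lists or of the cell type markers was called in MT2 mice, where the T and NK cell sum was 314 to 1878 with rTIMP2 and 75.3 to 274 with HBSS.

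The ratio of Psmb9 to Psmb6 was 0.101, 0.552, 0.111, 0.0995 and 0.219 in MT2 rTIMP2 lungs, all above the MT2 HBSS lungs. The log2 ratio differed by 1.64 (exact two-sided permutation p = 0.0079, adjusted p = 0.041). Replicate 2, the library with almost no reporter, was the highest of the 5 at 0.552, and the other 4 were between 0.0995 and 0.219. Psmb8/Psmb5 differed by 1.27 with overlap (exact p = 0.032, adjusted p = 0.096), and Psmb10/Psmb7 by 0.40 (exact p = 0.3, adjusted p = 0.37). In WT mice Psmb9/Psmb6 differed by 1.54 and Psmb8/Psmb5 by 1.11 between rTIMP2 and HBSS, with overlap and an adjusted p of 0.096 for both. The interaction of genotype with rTIMP2 passed for 0 of 10 genes, as for 0.0% of all genes (1053 at an unadjusted p under 0.05), and 0 of 10 had an unadjusted p under 0.05. Its estimate for Psmb9 was 0.71 ± 0.64 (interval -0.63 to 2.04) and for H2-K1 it was -0.17 ± 0.55 (-1.33 to 0.98).

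The lungs of the rTIMP2 groups were also set against tumour-free lungs of the same genotype. These comparisons share the tumour-free libraries with those of the HBSS groups. In WT rTIMP2 replicates 2, 3 and 5 the reporter was 0, Hmga2 was 32.1 or below and Xist was 92.4 or below. The part of these libraries in the WT comparison was not tested. In WT mice 0 of 10 genes passed, where 0.208% of all genes passed by limma. An unadjusted p under 0.05 was found for 2 of 10 and for 2868 of all 16815 genes. All 10 differences were negative, with a median of -0.20 against -0.03 for all genes. Tap2 was 1198, 1607, 1118, 1027 and 1432 in WT rTIMP2 lungs, all below the tumour-free lungs (log2 difference -0.48 ± 0.13, adjusted p = 0.16). Tapbp was 3573, 3577, 3334, 3366 and 3537, also without overlap (-0.29 ± 0.10, adjusted p = 0.22).

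In MT2 mice 2 of 10 genes were lower with rTIMP2 than in tumour-free lungs, where 32.7% of all 16754 genes tested were lower and 26.6% higher. An unadjusted p under 0.05 was found for 4 of 10 and for 10859 of all 16754 genes. Tap1 was 297, 798, 439, 415 and 859 in MT2 rTIMP2 lungs, with replicates 1 to 4 below the tumour-free range and replicate 5 inside it. Its log2 fold change was -0.92 ± 0.29 (limma adjusted p = 0.018). Tap2 was 675, 1530.4, 703, 914 and 1373, with replicate 2 inside the tumour-free range and the other 4 below it. Its log2 fold change was -0.72 ± 0.23 (adjusted p = 0.022), and without MT2 tumour-free replicate 3 or 4 or MT2 rTIMP2 replicate 1 or 3 the adjusted p was 0.051 to 0.055. H2-K1 was 6429, 17391, 7081, 6355 and 12326, and its difference of -0.74 ± 0.30 did not pass (adjusted p = 0.052). Without MT2 rTIMP2 replicate 2, the library with almost no reporter, 5 of 10 genes passed and H2-K1 had an adjusted p of 0.0011, where 74.4% of all genes passed. Without replicate 5, 4 of 10 passed, where 52.3% of all genes did.

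Of the 8 genes called lower in MT2 tumour lungs with HBSS, 6 were not called with rTIMP2: H2-K1, B2m, Tapbp, Nlrc5, Psmb8 and Psmb9. Both comparisons share the tumour-free lungs, and passing in 1 of them alone does not show a difference between HBSS and rTIMP2. Set directly against HBSS, rTIMP2 gave 0 of 10 calls in MT2 mice. Over all genes 35.9% were called lower with HBSS and 32.7% with rTIMP2. How many of all genes lost their call was not counted. B2m had a limma adjusted p of 0.2 with rTIMP2, Tapbp of 0.065 and Nlrc5 of 0.55. Psmb8 and Psmb9, at -1.61 ± 0.31 and -2.13 ± 0.36 with HBSS, had differences of -0.29 ± 0.24 (limma adjusted p = 0.31) and -0.49 ± 0.32 (adjusted p = 0.2) with rTIMP2. All 15 constitutive proteasome genes were higher with rTIMP2 than in tumour-free MT2 lungs (median 0.95), and 7 of 11 nonclassical class I genes and 10 of 19 interferon gamma pathway genes tested were lower. Endothelial markers were lower for 10 of 10 and epithelial markers for 12 of 12 in that comparison.

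Between the genotypes under rTIMP2, 0 of 10 genes passed, as for 0.0% of all genes by limma (2998 at an unadjusted p under 0.05), and 1 of 10 had an unadjusted p under 0.05. The median difference (MT2 minus WT) was -0.38 against -0.01 for all genes. H2-K1 differed by -0.69 ± 0.31 (adjusted p = 0.26) and Tap1 by -0.73 ± 0.32 (adjusted p = 0.26). Both passed without MT2 rTIMP2 replicate 2, with adjusted p of 0.026 and 0.049, where 35.2% of all genes passed.

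In the subcutaneous model the question was whether rTIMP2 changed these genes in early metastatic lungs. Against HBSS, 0 of 10 genes passed with rTIMP2 from day 0, where 8.1% of all genes passed by limma. An unadjusted p under 0.05 was found for 0 of 10 and for 4496 of all 17282 genes. With rTIMP2 from day 7, 0 of 10 passed, where 10.4% of all genes passed. An unadjusted p under 0.05 was found there for 3 of 10 and for 4687 of all 17389 genes. These comparisons share the HBSS libraries. The median log2 difference was -0.05 from day 0 and -0.25 from day 7, and all 10 differences were negative from day 7. The 10 genes vary together, so their shared sign is not 10 separate results. The direction of calls over all genes also moved with scaling in both comparisons with HBSS. Between the 2 treatments 0 of 10 passed, where 0.235% of all genes passed. An unadjusted p under 0.05 was found for 1 of 10, Tap2, and for 2249 of all 17481 genes. Tap2 was 2183, 2068, 1919.8, 2292 and 1799 from day 0 and 1580.1, 1778, 1766 and 1768 from day 7, without overlap, a log2 difference of -0.25 ± 0.08 (adjusted p = 0.2).

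H2-K1 was 23194, 19659.9, 37015, 23139.6 and 25052 with HBSS, 20842, 18699.6, 24528, 29347 and 17438 with rTIMP2 from day 0 and 17022, 16384, 20634 and 21116 with rTIMP2 from day 7. HBSS replicate 3 was the highest of all 14 libraries, and the groups overlapped. The log2 difference from HBSS was -0.20 ± 0.18 for day 0 (limma adjusted p = 0.51, interval -0.58 to 0.18) and -0.42 ± 0.17 for day 7 (adjusted p = 0.13, interval -0.79 to -0.05). H2-D1 differed by -0.31 ± 0.11 for day 7 (adjusted p = 0.092). B2m was 14369, 14595, 20981, 12786 and 12764 with HBSS, 13234, 11403, 13437, 19868 and 12316 from day 0 and 12204, 12076, 14536 and 15137 from day 7, with day 0 replicate 4 and HBSS replicate 3 the highest.

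Tap1 was 1301, 876, 3053, 1076 and 1318 with HBSS, 1567, 1232, 1374, 2311 and 1156 from day 0 and 969, 1064, 1275 and 1429 from day 7. HBSS replicate 3 was again the highest, and the log2 differences from HBSS were 0.10 ± 0.34 and -0.23 ± 0.36. Psmb9 was 605, 435, 1295, 559 and 686 with HBSS, 743, 541, 716, 988 and 517 from day 0 and 463, 486, 573 and 627 from day 7, with differences of 0.03 ± 0.30 and -0.32 ± 0.30. Nlrc5 was 454, 297, 1124, 493 and 621 with HBSS, 405, 326, 425, 792 and 374 from day 0 and 351, 381, 479 and 613 from day 7, with differences of -0.29 ± 0.37 and -0.28 ± 0.38. In that same HBSS replicate 3, Ciita was 1883 and Ifng 10.3, each the highest of the 14 libraries. Psme1 from day 7 differed by -0.23 ± 0.08 (limma adjusted p = 0.077, or 0.035 without HBSS replicate 4). Tapbp had the narrowest intervals of the 10 genes in both comparisons, -0.19 to 0.15 and -0.21 to 0.08.

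**Figure D4:**
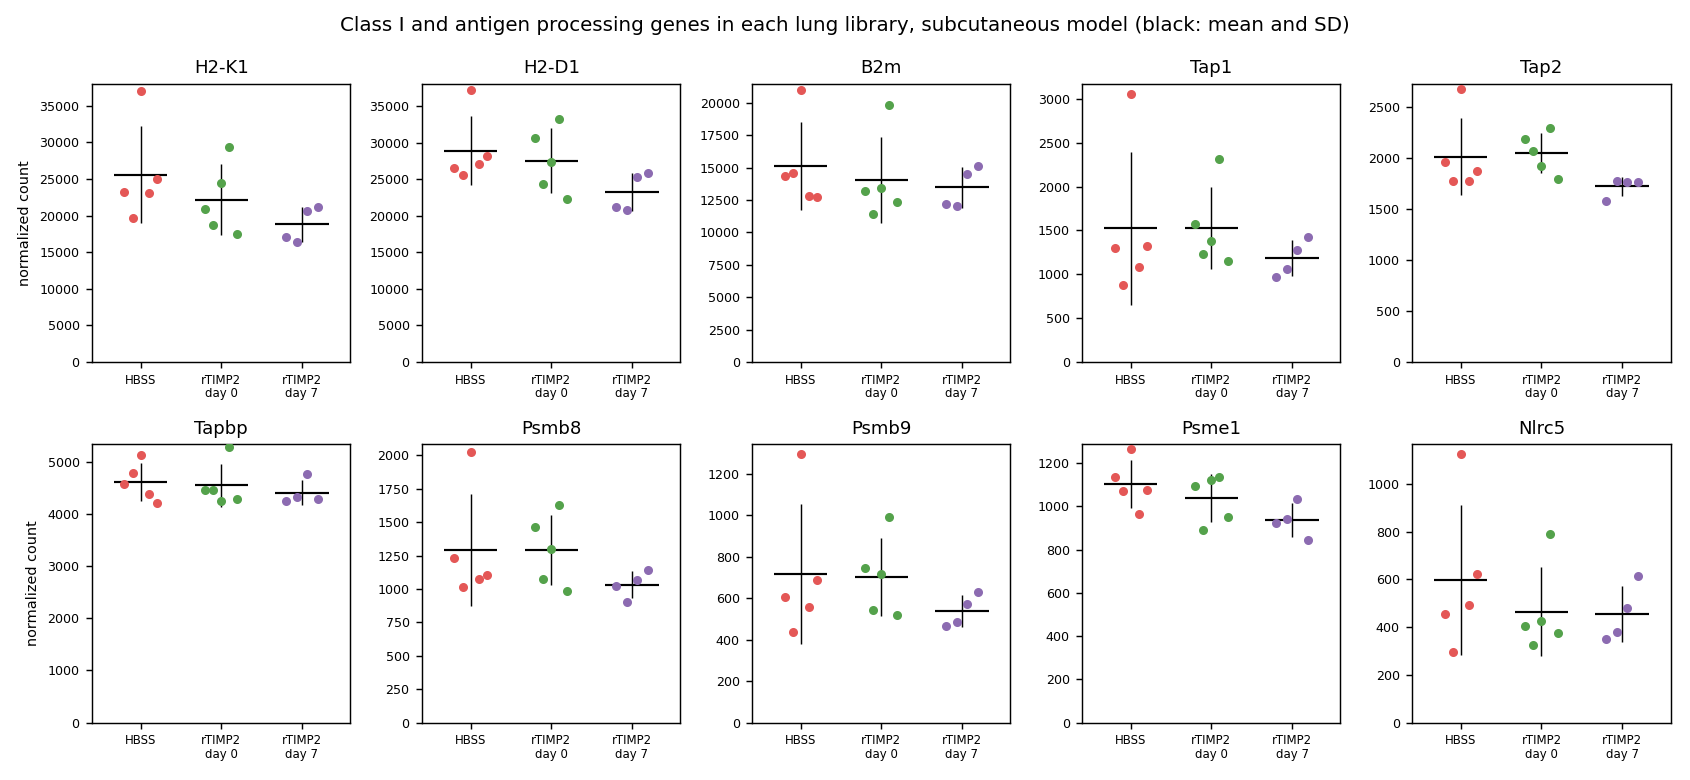
Normalized counts (vertical axes from 0) of the 10 genes in each subcutaneous library, 1 point per library, with black lines for the mean and SD (HBSS and rTIMP2 from day 0, n = 5; rTIMP2 from day 7, n = 4). The highest red point, HBSS replicate 3, reaches 37015 for H2-K1, 3053 for Tap1 and 1124 for Nlrc5.

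Related lists gave few calls in the subcutaneous model. Of 15 constitutive proteasome genes, 5 were lower from day 7 (median -0.17), among them Psmb5 (-0.30 ± 0.06, limma adjusted p = 0.0098) and Psmb6 (-0.28 ± 0.05, adjusted p = 0.0075). From day 0 none of the 15 was called. Of the 8 loading and trimming genes, Lap3 (-0.39 ± 0.09) and Calr (-0.33 ± 0.09) were lower from day 0. Rfx5, a subunit of the factor that binds the X box of MHC promoters, was higher from day 0 (0.46 ± 0.10, adjusted p = 0.012) and from day 7 (0.30 ± 0.08, adjusted p = 0.023). None of the 11 nonclassical class I genes, 10 class II genes or 16 T and NK cell markers was called in these comparisons with HBSS, and none of the 9 ratio tests in this model passed.

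Across libraries the 10 genes varied together to different degrees, which is given as a description, since libraries of a group share treatment and scaling. Over the 30 intratracheal libraries the median Spearman correlation of the 45 pairs was 0.77. Psme1 was the exception, with pairwise correlations of -0.14 to 0.11 and a correlation of 0.076 with the mean of the 10 standardised genes, against 0.80 to 0.93 for the other 9. With each group's mean removed the median of the pairs was 0.55. The pairs with Psme1 then had a median of 0.26, the lowest of the 10 genes, and ranged from -0.22 to 0.55. Pairs with Tapbp ranged from -0.22 to 0.74. Over the 14 subcutaneous libraries the median was 0.67, and Tapbp had the lowest correlation with the mean of the 10, 0.48. The genes outside the 10 with the pattern most like that mean were H2-T23 (0.978), H2-T22 (0.895) and C1qtnf9 (0.89) in the subcutaneous libraries. In the intratracheal libraries they were the class II genes H2-Eb1 (0.946) and H2-Ab1 (0.936), followed by Sp140 (0.914), Cxcr3 (0.911), Ifi47 (0.91) and Igtp (0.907).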

How the data were processed

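RNA of lung pieces was sequenced after poly(A) selection, per the labels' protocols. The authors deposited normalized counts, a signal with 1 value per gene and library, in 1 table per tumour model. The submitters' processing notes name STAR, Bowtie2, Partek, DESeq2 and build mm10. Their versions, roles and order, how multi-mapped reads were handled and which strand was counted were not given in the sources used here. Low values step by about 1 read, and 79.1 to 84.7% of low values were whole multiples of that step (tolerance 0.02, up to 20 steps), too few to recover reads. No count model was therefore fitted.

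Groups came from sample titles. In the intratracheal model the sample numbers of tumour-free lungs lie in a range apart from those of tumour lungs. What the numbers stand for was not given in the sources used here. Each comparison was fitted on the groups compared with limma 3.58.1 in R 4.3.3 (lmFit, eBayes with trend and robust) on log2(value + 1), which understates changes of low genes. A gene entered a fit if at least as many libraries as the smaller group holds had a value of 10 or above, and a call was an adjusted p (Benjamini-Hochberg over all genes) under 0.05. The fit was also run on simulated data in which each gene varied independently. That run held no deviation shared across a library, so it does not check the calls made here. Intervals are 95% intervals from the moderated statistic. Ratios were tested with exact permutation tests in scipy 1.17.1, adjusted over 36 tests. The 10 genes and the 18 other gene lists (189 genes) were chosen with earlier results of these data known. All 10 genes are reported; from the other lists up to 3 called genes per direction and comparison were eligible, besides Timp2, the reporter Luc2, Hmga2, Ifng, Irf1, Cd8a, Ptprc, Ciita and the ratio partners, and the 10 genes correlating best with the mean of the 10 members. Xist, Ddx3y and the H2-K1/H2-D1 ratio were added after values had been seen. Same-numbered samples of 2 groups did not deviate together in every pair, so replicate numbers were not used for pairing. Alternatives were another pseudocount (5), no filter, upper quartile scaling, scaling to the library total, all groups of a table in 1 fit, a replicate block, and leaving out each library. No 2 libraries held identical values. One further gene of this rule is not reported here.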

Additional observations from a re-analysis of the deposited data

Results flagged for a closer look

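Within the groups of 4 or 5 libraries, 90 gene and group combinations and 27 ratio and group combinations were searched for a library far from the rest. A library was flagged by its gap to the nearest value over the range of its group, on unlogged values, and 24 were found. Chance would give about 1 in 20 if the checks were independent. The genes vary together and the ratios reuse Psmb8 and Psmb9, so the 24 cannot be read against that rate. In subcutaneous HBSS replicate 3, the highest of its group, H2-D1 was 37256, B2m 20981, Tap1 3053, Tap2 2676 and Psmb8 2025, with ratios of 2.06 for Psmb8/Psmb5 and 1.01 for Psmb9/Psmb6. In subcutaneous rTIMP2 day 0 replicate 4, B2m was 19868, Tapbp 5272, Nlrc5 792 and Psmb9/Psmb6 0.937, each the highest. In the day 7 group Tap2 was lowest in replicate 1 (1580.1, the others 1766 to 1778) and Tapbp highest in replicate 3 (4759.9).

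In the intratracheal WT HBSS group, replicate 1 was highest for H2-D1 (24370.1), Tap2 (1542), Nlrc5 (454), Psmb8/Psmb5 (1.13) and Psmb9/Psmb6 (0.376). WT tumour-free replicate 4 was highest for H2-K1 (19802), H2-D1 (23486) and Psmb9 (769). WT rTIMP2 replicate 2 was highest for H2-K1 (20613), MT2 HBSS replicate 3 for Tapbp (4268), and MT2 rTIMP2 replicate 2 for Psmb9/Psmb6 (0.552).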

How the results depend on the processing

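Of 2420 fits of single genes under alternative settings, 2353 kept the side of the threshold of the reported value. A further 39 lost a call, 28 gained one and 0 reversed. Sign changes between values called in neither fit were not counted, so the 2353 include some of these. Counts of called genes moved as follows when 1 library was left out: 5 to 10 of 10 for HBSS tumour against tumour-free in WT (reported 7), 6 to 9 in MT2 (8), 0 to 6 for rTIMP2 against HBSS in WT (1), 1 to 5 for rTIMP2 against tumour-free in MT2 (2), 0 to 2 for MT2 against WT under rTIMP2 (0), 0 to 1 for rTIMP2 from day 7 against HBSS (0), and 0 to 12 for the ratio tests (7). For rTIMP2 against HBSS in WT the count was 0 with no filter, upper quartile scaling, scaling to the library total or the replicate block, and 3 with all groups in 1 fit, which gave 2 in place of 0 in MT2. The causes were not tested.

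With the replicate number as a block, calls over all genes for rTIMP2 against HBSS in WT fell from 4619 to 0, and with WT HBSS replicate 1 or WT rTIMP2 replicate 4 left out they were 7308 and 9584. They were also 0 in 8 of the 10 fits that left out 1 library with no block. The 5 same-numbered pairs there correlated at -0.46 to -0.28 in their deviations from the group means. Such deviations cannot settle whether the numbers pair the samples, because libraries of a group also differ widely in Hmga2. The share of calls that were higher moved under scaling from 58.5% to 47.7% in that comparison, from 48.0% to 61.5% and 63.7% for day 0 against HBSS, from 43.0% to 53.1% and 54.3% for day 7 against HBSS, and from 65.9% to 53.3% for day 7 against day 0. Depth limits Ifng, which was at 10.8 or below in all 44 libraries.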
